A study of Mus musculus with 192 samples.

Results

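The report follows 10 mouse genes that were singled out when protein dynamics were modelled from RNA and miR levels during retinoic acid (RA) differentiation. They are Acad8, Cdk7, Eif4h, Rab8a, Mfge8, Pccb, Srgap2, Leo1, Tnfrsf22 and Ap1g1, 10 of the 45191 genes listed in every total RNA file. The members were taken by name. In the study's model the miR term acted on protein synthesis, while the data described here are RNA only. For 7 of them (Acad8, Cdk7, Eif4h, Rab8a, Mfge8, Pccb and Srgap2) the study proposed 13 pairs with 1 of 13 miRs, and because that proposal came from models fitted to the time courses described here, those courses are not independent evidence for the pairs. Leo1 was paired with a 14th miR, miR-216a-5p, as a case in which no effect was foreseen. Tnfrsf22 and Ap1g1 were examples of genes modelled without a miR. In the fraction files only Cdk7, Eif4h and Srgap2 were listed, and the other 7 genes were not analysed there.

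The cells were E14 mESCs, a mouse embryonic stem cell line, kept in 2i medium with LIF and differentiated with 0.25 µM RA in N2B27 medium. Libraries were made before RA and 6, 12, 24 and 36 h and then 48, 72 and 96 h after its addition, from total RNA, from a cytoplasmic and a nuclear fraction (3 replicates each, 24 libraries per fraction) and from small RNA (4 replicates, 32 libraries). Total RNA came in separate sequencing runs: replicates 1 and 2 were read single-end (9 unsorted libraries) and replicate 3 paired-end (5 libraries), and only 0 h and 96 h had both single-end replicates. At 96 h the population had also been sorted into extraembryonic endoderm-like (XEN) and ectoderm-like (ECT) cells, with 1 library each. In a separate experiment, undifferentiated mESCs in 2i medium with serum were transfected with 1 of 14 miR mimics (double-stranded RNAs that raise a miR) for 24 h, or with 1 of 14 inhibitors (antisense oligonucleotides with LNA bases that bind a miR) for 48 h. The mimics were at 100 nM in the transfection mix and the inhibitors at 2 times that dose, and the mix was then added to the medium of the cells. Scrambled reagents and untransfected cells were the controls, with 3 replicates each. The transfections were therefore read in cells that had not received RA.

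A miR guides the Argonaute protein to a matching stretch of an mRNA, mostly in the 3′ untranslated region (3′ UTR), and pairing of bases 2 to 8 of the miR, its seed, is the main determinant of recognition. The usual result is a moderate loss of the mRNA and of its translation, so a mimic is expected in general to lower a target and an inhibitor to raise it where the miR is active. The 10 genes do unrelated work. Acad8 and Pccb encode mitochondrial enzymes of branched-chain amino acid and propionate breakdown, Cdk7 and Leo1 encode parts of the RNA polymerase II machinery, Eif4h a helper of the translation initiation helicase eIF4A, Rab8a and Ap1g1 proteins of membrane traffic, Mfge8 a secreted bridge between phosphatidylserine and integrins, Srgap2 a GTPase-activating protein of the Slit-Robo pathway, and Tnfrsf22 a decoy receptor of the TRAIL ligand.

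The miR sequences below, with the seed in capitals, are those of predicted pairs in which each mimic library lay below each scrambled one (miR-433-3p, miR-135b-3p and miR-99a-5p), of miR-100-5p with the same seed as the last of these, and of miR-152-3p as the other miR assigned to Eif4h. They were taken from RefSeq (GRCm38.p6), which held 12 of the 14 transfected miRs. miR-467e-5p and miR-1946a had no entry and are only named.
miR-433-3p: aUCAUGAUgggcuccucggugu
miR-135b-3p: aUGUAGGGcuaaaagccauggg
miR-99a-5p: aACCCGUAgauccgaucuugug
miR-100-5p: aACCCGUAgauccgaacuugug
miR-152-3p: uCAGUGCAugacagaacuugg

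The letters that pair with each seed were searched on the transcript strand of the 3′ UTR, 7 bases at a time, as ATCATGA for miR-433-3p, CCCTACA for miR-135b-3p, TACGGGT for miR-99a-5p and miR-100-5p and TGCACTG for miR-152-3p. Each of the 11 predicted pairs whose miR sequence was at hand had at least 1 such match, which is a description of the letters and not evidence of binding. The study drew its pairs from computed TargetScanMouse targets, which rest on sequence features, so these matches follow from the choice of pairs. In the lines below the 7 matching bases are in capitals within 24 bases of transcript, all in GRCm38 and on the minus strand.
Acad8 for miR-433-3p, chr9:26975614-26975637: ctcagttcaagtgaATCATGAagt
Acad8 for miR-433-3p, second match, chr9:26975253-26975276: actcctgtactcagATCATGAtga
Pccb for miR-433-3p, a pair the study did not predict, chr9:100982604-100982627: ccctgccttttacaATCATGAaaa
Srgap2 for miR-135b-3p, chr1:131287404-131287427: gagtttccaccctgCCCTACAtcc
Cdk7 for miR-99a-5p and miR-100-5p, chr13:100703338-100703361: aaaatatgtaaaacTACGGGTtat
Eif4h for miR-152-3p, chr5:134620842-134620865: gagtctggaccttcTGCACTGgtg
Eif4h for miR-152-3p, second match, chr5:134620639-134620662: gggcagctgtgcttTGCACTGagt
Such matches differ in rarity. Of 20996 genes with a 3′ UTR, 1.09% held the 7 letters for miR-99a-5p and miR-100-5p, 6.59% those for miR-135b-3p, 8.94% those for miR-433-3p and 12.6% those for miR-152-3p.

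Depth ranged from 9119540 to 21652608 counts per cytoplasmic library, from 6860455 to 30624957 per nuclear library, from 29302970 to 36284828 per single-end and 12608582 to 13632600 per paired-end total RNA library, from 6257540 to 37413422 per mimic library, from 8461510 to 44083838 per inhibitor library and from 1062307 to 17988061 per small RNA library. The replicate 1 total RNA libraries at 36 h and 48 h differed by only 1.21 times the sampling noise. This is the median over genes of the squared difference, relative to the median that sampling noise alone gives. No other of the 91 library pairs was nearer than 10.2. Calls that rest on the 36 h and 48 h libraries of replicate 1 are therefore also given without them. The shallowest small RNA library was that of replicate 7 at 72 h. The summed level of 8 naive pluripotency markers went from 3515 and 4400 CPM (counts relative to the TMM-scaled total of the library) at 0 h to 243–276 CPM at 96 h in the single-end libraries, and that of 10 XEN markers went from 34.8–58.1 to 19680–31400 CPM. The 8 ectoderm-like markers went from 195–267 to 527–917 CPM, and markers of both kinds were thus present at 96 h. In such bulk libraries fewer cells of a type and less RNA per cell cannot be told apart, and the part of this change in the courses below was not tested.

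The mimic experiment asked whether raising each miR lowers the mRNA of its proposed target. One predicted pair passed the test: Eif4h fell to 0.552 of its scrambled level with the miR-467e-5p mimic. Its level was 179.9, 155.1 and 212.0 CPM in the 3 mimic libraries and 375.0, 305.5 and 313.2 CPM in the 3 scrambled libraries, so the groups did not overlap. The log2 change was −0.86 (SE 0.12, adjusted p = 6.68e-05 by edgeR's quasi-likelihood test with Benjamini-Hochberg adjustment over all 12502 genes), and it stayed past the threshold of 0.05 in each alternative run, with adjusted p from 4.85e-09 to 0.0479. The highest of these came without the mimic libraries of replicate 1. The library names of this group give miR-467a-5p and its titles miR-467e-5p, so which of the family's members was transfected is not settled by the labels. Its mimic lowered 53 genes (0.424% of those tested) and raised 4.

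For the other mimic assigned to Eif4h, miR-152-3p, the levels were 281.5, 306.2 and 270.6 CPM. They overlapped the scrambled libraries, and the log2 change was −0.20 (adjusted p = 0.898). Eif4h has both TGCACTG matches shown above, while sites for miR-467e-5p were not searched.

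Acad8 with the miR-433-3p mimic had the second lowest predicted value. Its level was 18.49, 13.10 and 13.47 CPM against 23.33, 25.54 and 20.80 CPM with the scrambled mimic. The groups did not overlap, but the log2 change of −0.62 (SE 0.18) had an adjusted p of 0.174, and over the alternatives the adjusted p ran from 0.0629 to 1. For the other mimics assigned to Acad8 the levels were 13.11, 20.20 and 25.47 CPM with miR-23b-5p (log2 change −0.22) and 20.98, 20.69 and 22.72 CPM with miR-5615-3p (−0.12). Both of these overlapped the scrambled libraries and neither passed.

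Srgap2 was at 120.4, 131.5 and 123.1 CPM with the miR-135b-3p mimic, below its 143.9, 164.7 and 156.3 CPM with the scrambled one (log2 change −0.31, SE 0.12, adjusted p = 0.341). That difference depended on the reference. It was −0.09 against untransfected cells and −0.17 against the mean of the other mimics whose library names have the same form. Srgap2 was below its scrambled level in 13 of 14 mimics, and these comparisons share the same scrambled libraries.

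Cdk7 was at 49.90, 50.03 and 50.51 CPM with the miR-99a-5p mimic and at 58.76, 56.84 and 67.98 CPM with the scrambled one. The groups were apart and the 3 mimic libraries close together, with a log2 change of −0.28 (SE 0.12, adjusted p = 1.0). With miR-100-5p, which has the same seed, the level was 58.27 and 57.88 CPM in the libraries kept and 97.12 CPM in replicate 3, which the study left out for low complexity. The difference between these mimics that share a seed was −0.21 for Cdk7 (95% interval −0.49 to 0.08, adjusted p = 1.0), and with the left-out library it was −0.51 (adjusted p = 0.0460), so this call rests on that library. None of the 10 genes, and 0.0% of all genes, differed between them past adjusted p 0.05 without it by edgeR, and none of the 10 by DESeq2, and 1 (Tnfrsf22, 0.46) had an unadjusted p under 0.05.

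The remaining predicted pairs lay near 0. Mfge8 with miR-150-3p was at 330.5, 235.9 and 252.5 CPM against 397.6, 216.9 and 226.2 CPM (log2 change −0.03). Pccb with miR-193b-5p was at 32.11, 30.16 and 32.96 CPM against 36.00, 26.81 and 31.51 CPM (0.01). In both the groups overlapped, and the scrambled libraries of Mfge8 alone ran from 216.9 to 397.6 CPM. Rab8a was at 54.93, 54.78 and 52.01 CPM with miR-194-1-3p (0.01), at 51.65, 52.83 and 55.01 CPM with miR-1946a (−0.02) and at 55.19, 71.91 and 53.87 CPM with miR-1946b (0.19, and 0.03 without replicate 2), against 57.23, 49.04 and 54.04 CPM. These 3 overlapped the scrambled libraries too.

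**Figure D1:**
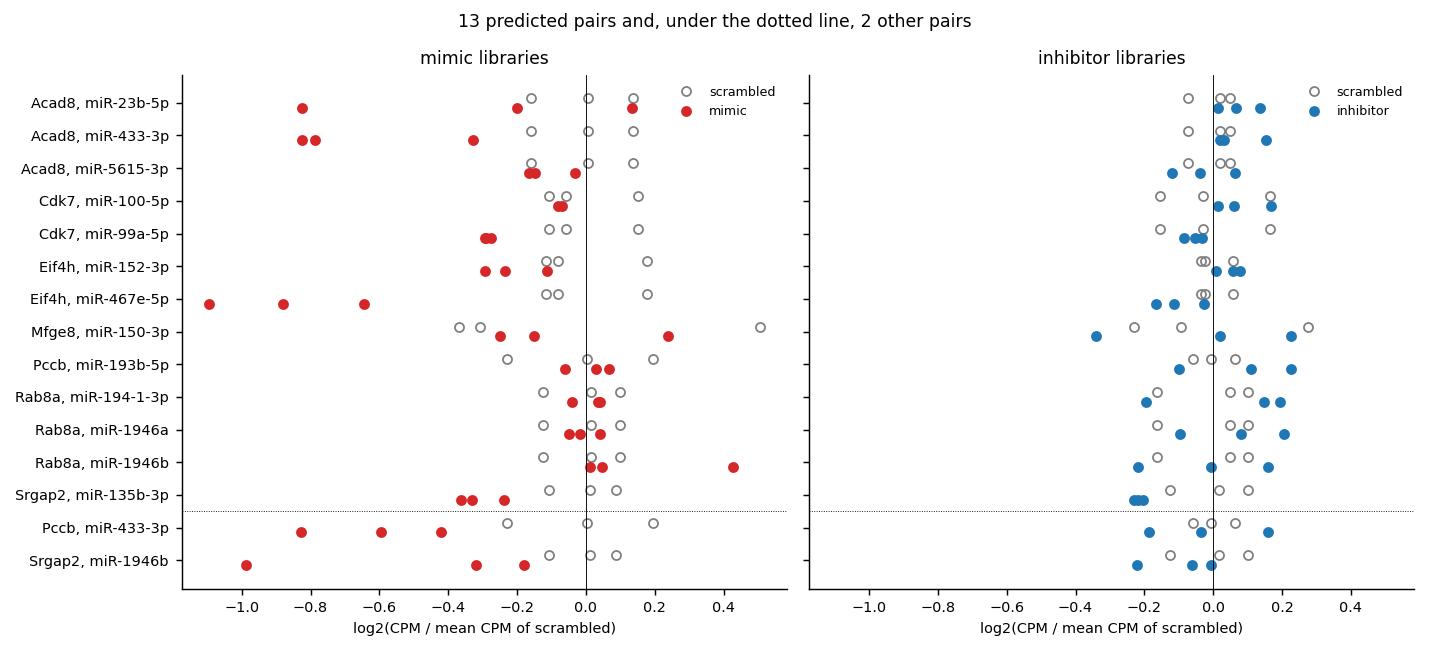
Log2 of the CPM of the target in each library over the mean CPM of the scrambled libraries (x axis) for the 13 predicted pairs and, under the dotted line, 2 other pairs (y axis), with mimic libraries in the left panel, inhibitor libraries in the right one and scrambled libraries as open circles (3 per group, 2 for the miR-100-5p mimic). The Eif4h libraries with the miR-467e-5p mimic (155.1 to 212.0 CPM) lie left of all 3 scrambled ones (305.5 to 375.0 CPM), and no inhibitor pair shows a shift of that size.

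Read over the 13 predicted pairs, 1 was called lower, where 0.158% of all gene and mimic combinations were. With an unadjusted p under 0.05, 4 of 13 were lower, where 3.65% of all combinations were, and in 4 of 13 every mimic library was below every scrambled one, where 6.02% were. In 10 of 13 the change was below 0, as it was in 50.2% of all combinations, and the median was −0.12. These 4 pairs hold 4 different genes and 4 different mimics. The predicted pairs were chosen by sequence, while all combinations include genes without a site, so the shares compare unlike sets. The scrambled libraries are shared by all of the 14 comparisons, and the library names put 6 mimics in one naming with the controls and 8 in another, which the labels do not explain. With the mean of the other mimics of the same naming as the reference, 1 of 13 was called as well. The scrambled mimic itself differed from no transfection in 0 of the 10 genes, and in 0.0% of all 12502 genes, by edgeR, and none of the 10 had an unadjusted p under 0.05.

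In the other 127 combinations of a member and a mimic no call was made in the main fit, which has no block for the transfection number. Of these, 8 had an unadjusted p under 0.05 (3 lower and 5 higher), and the median change was −0.03. With that block Pccb with miR-433-3p and Srgap2 with miR-1946b were called, as given below. With the predicted pairs, 12 of 140 had an unadjusted p under 0.05, where 7.51% of all combinations had, and 1 of 140 was called, where 0.266% were. Among the 127, the 14 with a match of bases 2 to 8 in the 3′ UTR had a median of −0.10 with 10 below 0, and the 86 without any 7-base match a median of −0.01 with 47 below 0. The difference between these medians was not tested.

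The lowest of the unpredicted values was that of Pccb with the miR-433-3p mimic. Pccb, the beta subunit of propionyl-CoA carboxylase, was at 23.46, 20.83 and 17.70 CPM, below each of the scrambled libraries (36.00, 26.81 and 31.51 CPM). The log2 change was −0.60 (SE 0.15, adjusted p = 0.0658). It passed with the transfection number as a block (adjusted p = 0.0125), with DESeq2 (0.0247) and with the other mimics of the same naming as the reference (0.0327). Its 3′ UTR has the match printed above, which ends in an A after the 7 letters, as the first Acad8 match does. The proposed miR of Pccb, miR-193b-5p, had left it at 0.01.

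Srgap2 with the miR-1946b mimic was the next, at 124.3, 78.18 and 136.8 CPM. Replicate 2 was far below the other 2, and without it the log2 change went from −0.45 (SE 0.12, adjusted p = 0.0774) to −0.25. With the block (0.0279), DESeq2 (0.0267) or the other mimics of the same naming as reference (0.0335) the adjusted p was under 0.05. It was so too without the replicate 3 mimic libraries (0.0492). No 7-base match for miR-1946b was found in the 3′ UTR of Srgap2. The same mimic had 43 genes called higher and 32 lower, 0.6% of those tested in all, and Cdk7 and Pccb were each at 0.30 with it (adjusted p = 0.190 and 0.251). Replicate 2 stood apart there too, with Cdk7 at 66.89, 90.56 and 65.61 CPM and Pccb at 36.99, 48.20 and 30.07 CPM in replicates 1 to 3. Without it the values were 0.12 for Cdk7 and 0.09 for Pccb.

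Leo1, a subunit of the PAF1 elongation complex, was at 104.3, 108.6 and 102.5 CPM with miR-216a-5p, inside the range of 96.63 to 149.0 CPM in the scrambled libraries (log2 change −0.18). It carries a match to the seed of miR-216a-5p in its 3′ UTR all the same. Tnfrsf22 was above its scrambled level in 10 of 14 mimics, highest with miR-5615-3p (0.38), miR-216a-5p (0.37) and miR-150-3p (0.37), and its scrambled libraries were at 19.79, 11.70 and 20.80 CPM. The second of these is low and enters each of those values. Mean Tnfrsf22 ran from 14.73 to 20.19 CPM over the 6 mimics named with the controls and from 19.78 to 22.83 CPM over the 8 others. Mean Leo1 ran from 118.7 to 138.2 CPM and from 99.89 to 113.4 CPM in these sets. Each mimic has only 1 naming, so an effect of the miR and a difference between the sets cannot be told apart. Ap1g1 was lowest with miR-150-3p (−0.35, adjusted p = 1.0), for which its 3′ UTR has a 7-base match.

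**Figure D2:**
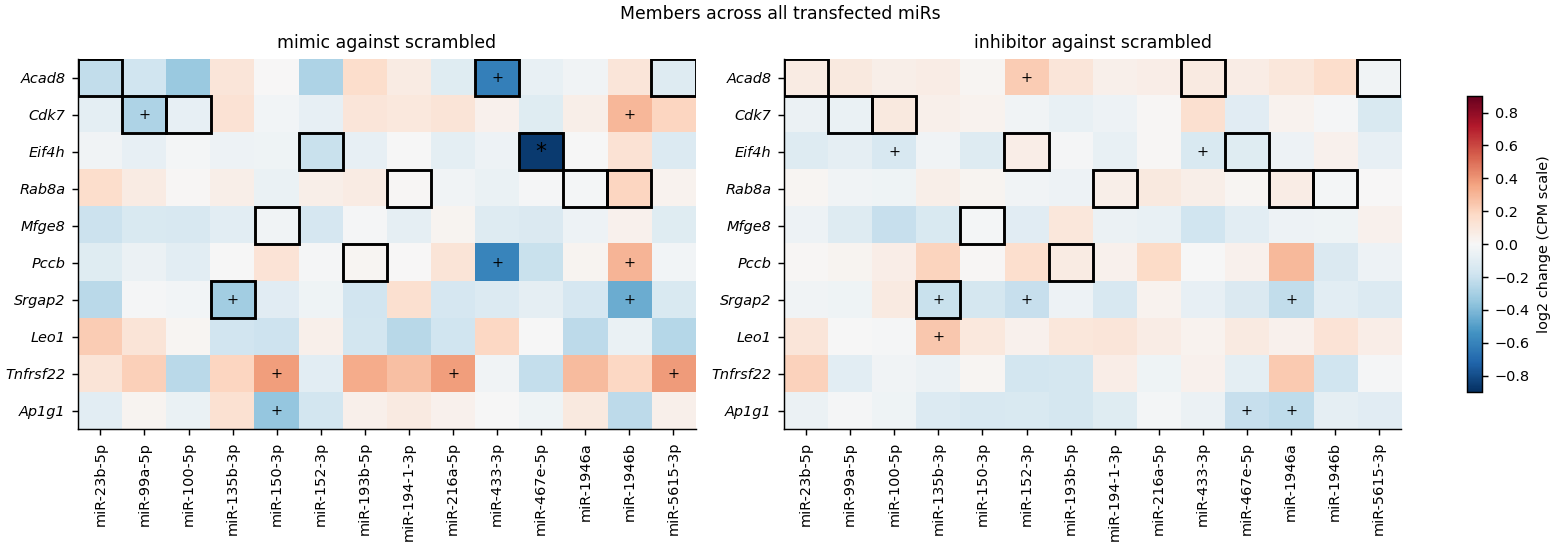
Log2 change against the scrambled reagent (color, symmetric about 0) for the 10 genes (rows) and 14 miRs (columns), with mimics in the left panel and inhibitors in the right one; framed cells are the 13 predicted pairs, an asterisk marks an adjusted p under 0.05 and a plus sign an unadjusted p under 0.05. Among mimics the values run from −0.86 to 0.38, and among inhibitors from −0.23 to 0.29.

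The activity of a mimic can be read over all genes, from those with a site of 8 bases against those with none. Such a site is the 7 letters followed by an A. Having no sequence, miR-467e-5p and miR-1946a were left out. With the mimics the median log2 change of genes with a site minus that of genes without was −0.34 for miR-100-5p, −0.25 for miR-99a-5p, −0.18 for miR-433-3p, −0.17 for miR-135b-3p and −0.14 for miR-152-3p. It was −0.10 for miR-194-1-3p, assigned to Rab8a, and −0.10 and −0.09 for miR-5615-3p and miR-23b-5p, both assigned to Acad8. It was within 0.03 of 0 for miR-216a-5p, miR-150-3p, miR-193b-5p and miR-1946b, of which the last is another mimic assigned to Rab8a. With the inhibitors it was 0.07 for miR-433-3p and between −0.06 and 0.00 for the others. For an inhibitor such a value depends also on how much of the miR the cells hold. A value near 0 therefore does not tell whether the reagent was active. These medians are given with no test. With the mimics they rest on 28 genes with a site for each of miR-99a-5p and miR-100-5p, 86 for miR-1946b and 222 to 660 for the others.

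The inhibitor experiment asked the reverse, whether lowering a miR raises the mRNA of its target. None of the 13 predicted pairs was called higher (0.0461% of all gene and inhibitor combinations were), and 0 of 140 was called in either direction (0.119%), by edgeR as by DESeq2, while 9 of 140 had an unadjusted p under 0.05 (4.77%). The predicted pairs lay between −0.20 and 0.09, with 7 above 0 and 6 below. Such a test needs miR to lower, and miR levels were not measured in the transfected cells. In the small RNA libraries at 0 h, each miR proposed for Cdk7, Rab8a or Pccb had a mean of at most 8.56 CPM. For miR-5615-3p, assigned to Acad8, it was 0.177 CPM. The other miRs of predicted pairs ran from 12.4 to 1837 CPM. For the pairs at or below 8.56 CPM little miR was there to lower, so the lack of a rise decides nothing. Eif4h was at 355.5, 377.5 and 342.7 CPM with the miR-467e-5p inhibitor and at 378.4, 400.5 and 375.7 CPM with the scrambled inhibitor (log2 change −0.11, 95% interval −0.24 to 0.02). The interval excludes a rise of the size of the fall that the mimic gave. Acad8 was at 30.59, 30.31 and 33.26 CPM with the miR-433-3p inhibitor against 28.46, 30.34 and 30.97 CPM (0.08, interval −0.14 to 0.30).

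Srgap2 was on the other side of 0 from the foreseen direction with the miR-135b-3p inhibitor, at 108.1, 109.2 and 107.2 CPM against 125.9 ± 9.93 CPM (SD, 3 scrambled libraries from 115.3 CPM up) (−0.20, adjusted p = 0.652). Mimic and inhibitor thus both had Srgap2 below their scrambled control, without passing the test. Cdk7 was at −0.06 with the miR-99a-5p inhibitor and at 0.09 with that of miR-100-5p. At a higher dose the paper reports a strong rise of CDK7 protein with the miR-99a-5p inhibitor, which RNA libraries cannot show. For ACAD8 and EIF4H protein it reports that mimic and inhibitor moved the level in the same direction. Over all inhibitors Ap1g1 was below 0 in 14 of 14 (median −0.11) and Acad8 above 0 in 13 of 14 (median 0.07), in comparisons that share the same 3 scrambled libraries. The lowest value, Ap1g1 with miR-1946a (−0.23, adjusted p = 0.454), passed only with the transfection number as a block (adjusted p = 0.0467). In the tests on simulated data 58.2% of genes changed 1.5-fold were recovered in the miR-433-3p inhibitor comparison, and 23.9% in the miR-433-3p mimic comparison.

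The fractions asked how the mRNAs ran over time in the cytoplasm and in the nucleus. Srgap2 rose early and then fell in both. In the cytoplasm it was at 180.6, 194.1 and 201.8 CPM at 0 h, at 177.5, 262.4 and 268.1 CPM at 6 h, at 122.5, 126.4 and 129.0 CPM at 48 h, at 104.6, 135.7 and 111.1 CPM at 72 h and at 140.1, 143.1 and 153.4 CPM at 96 h. The 0 h libraries lay above all of those from 48 h on, while at 6 h 1 library was within the 0 h range. Against 0 h the log2 change was 0.35 at 6 h (adjusted p = 0.00547) and 0.38 at 12 h, −0.44 at 36 h, −0.57 at 48 h (adjusted p = 3.69e-06), −0.68 at 72 h (SE 0.10, adjusted p = 8.62e-08) and −0.39 at 96 h (adjusted p = 4.93e-04), and it was not called at 24 h. The nuclear course had the same calls, with 0.46 at 6 h, −0.77 at 48 h (adjusted p = 1.04e-08) and −0.52 at 96 h, from 157.0, 167.8 and 158.2 CPM at 0 h to 92.45, 89.13 and 95.86 CPM at 48 h. Both courses partly recovered by 96 h.

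Eif4h ran the other way. Its cytoplasmic level was 511.5 ± 12.3 CPM (SD, n = 3) at 0 h, 447.8 CPM at 6 h, 586.7 CPM at 72 h and 664.3 ± 21.4 CPM at 96 h. The rise was 0.23 at 72 h (adjusted p = 0.0112) and 0.38 at 96 h (adjusted p = 4.4e-05), and the lower level at 6 h (−0.14) was not called. In the nucleus it went from 486.9 CPM to 667.4 CPM (0.46 at 96 h, adjusted p = 2.38e-06).

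Cdk7, the kinase of the TFIIH and CDK-activating complexes, stayed within means of 90.5 to 100.7 CPM in the cytoplasm and passed at no time. In the nucleus its means ran from 76.6 to 102.8 CPM, and it was lower at 24 h (−0.31, adjusted p = 0.0328) and at 48 h (−0.29, adjusted p = 0.0319). The 3 nuclear libraries at 24 h ranged from 63.6 to 95.5 CPM, and the highest was inside the 0 h range of 90.75 to 98.51 CPM. Tested over the 7 later times together, 2 of these 3 genes changed in the cytoplasm (adjusted p = 2.17e-14 for Srgap2, 9.66e-06 for Eif4h and 0.749 for Cdk7), where 78.3% of 11817 genes did, and 3 of 3 in the nucleus (Cdk7 0.00732), where 82.7% did. Against 0 h, 24.5, 26.5, 35.2, 42.1, 49.4, 57.9 and 61.2% of all genes were called at the 7 later times in the cytoplasm, and 27.6, 31.7, 37.2, 46.6, 52.0, 59.4 and 61.7% in the nucleus. A change over time was thus the rule among the genes tested.

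**Figure D3:**
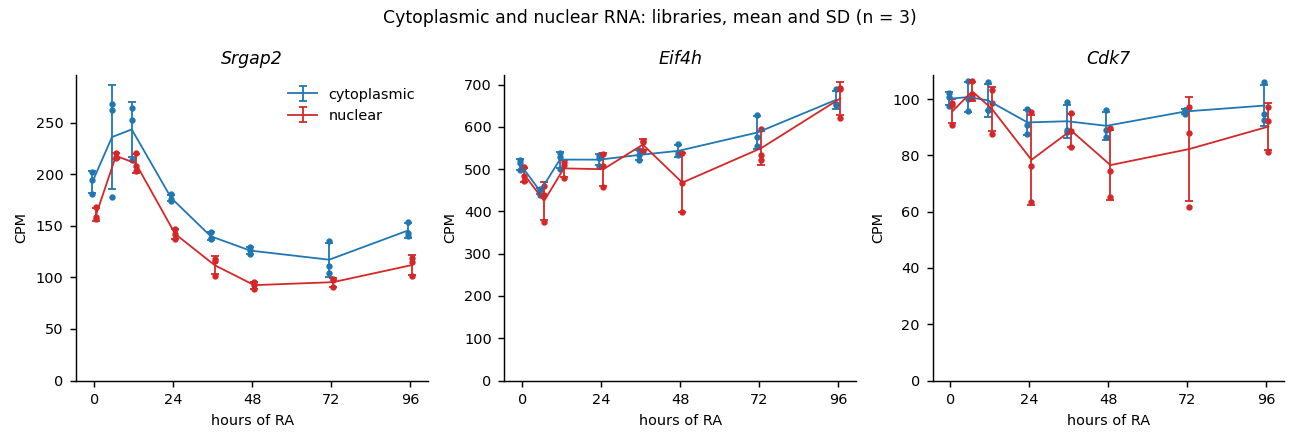
CPM (y axis) of Cdk7, Eif4h and Srgap2 over hours of RA (x axis) in the cytoplasmic and nuclear libraries; points are the 3 replicates per time, lines join their means and bars are SD. The nuclear mean of Srgap2 runs below the cytoplasmic one at each of the 8 times, and Eif4h is highest at 96 h in both fractions.

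Srgap2 had less of its share in the nucleus. Averaged over the 8 times its nuclear level was below the cytoplasmic one by a log2 difference of −0.28 (SE 0.03, adjusted p = 6.33e-08), where 17.2% of genes were called lower in the nucleus and 31.1% in either direction. CPM is a share of each fraction's own reads, so this compares shares and not molecules. At single times only 48 h passed (−0.42, adjusted p = 0.00419, where 9.41% of genes were called), and the other 7 values lay between −0.35 and −0.11. At those times few of the 11817 genes were called at all: 447 at 0 h, 2 at 6 h, 0 at 12, 24 and 36 h, 37 at 72 h and 40 at 96 h. The paper names it as possible that the fractionation left much cytoplasmic RNA in the nuclear fraction. Cdk7 was lower by −0.10 (adjusted p = 0.0492), a call that was lost with DESeq2 (0.0672), with its size factors (0.0688), without the filter on low counts (0.0714), with the culture as a block (0.0561) and without cytoplasmic replicate 5, 6 or 7 or nuclear replicate 5 or 6 (0.0982 to 0.328). Eif4h was at −0.05 (adjusted p = 0.161). Both fractions of a culture come from the same lysate, and with the culture as the block Srgap2 stayed called (−0.28, adjusted p = 2.95e-06), also at 48 h (0.00852). The difference between fractions did not change over time past the threshold for any of the 3 genes (adjusted p = 1.0 each), and 12 of 11817 genes (0.102%) had such a change.

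The genes that work with these 3 were followed from lists chosen by function. At 96 h against 0 h in the cytoplasm, where 61.2% of all genes were called, 8 of the 9 listed genes of the Slit-Robo pathway around Srgap2 were higher and 1 lower. Robo2, an axon guidance receptor, was at 11.13 and Slit1, a ligand of it, at 5.71 on the log2 scale, both from levels near 0, so that these sizes depend on the fit. Of the 8 tested genes around Eif4h, 2 were higher and 4 lower, with Eif4g3, a scaffold of the cap-binding complex, at 1.27 and the helicase gene Eif4a2 at −1.19. Of the 7 tested around Cdk7 only Ccnh, its cyclin, was lower (−0.58). Over the 24 cytoplasmic libraries the genes with the most similar log2 courses were Phf20 and Kansl1 for Srgap2 (Pearson r = 0.961 and 0.952), Pdia6 and Fkbp11 for Eif4h (0.943 and 0.932) and Unc119b and Rragc for Cdk7 (0.778 and 0.702). Each r is among the highest for its member over 9503 genes, a choice that by itself favors high values. These libraries share 8 times and 3 replicates and are not independent.

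Total RNA held all 10 genes. Per transcript length, in TPM, the length-corrected share of transcripts, in the single-end libraries at 0 h, Eif4h was the most abundant at 172.9 and 211.7, followed by Mfge8 at 85.2 and 96.5 and Rab8a at 60.7 and 72.1. These 3 did not overlap with each other or with the rest. Pccb was at 27.7 and 27.4, Leo1 at 21.1 and 35.0, Ap1g1 at 20.3 and 39.3 and Tnfrsf22 at 19.5 and 17.3. Cdk7 followed at 14.1 and 17.1, Acad8 at 12.1 and 12.7 and Srgap2 at 8.10 and 16.7. Pccb, Leo1 and Ap1g1 overlapped each other, as Srgap2 did with Cdk7 and with Acad8, and with 2 libraries no order was tested. This order is that of the single-end libraries only. In the paired-end library at 0 h Cdk7 was at 62.4, above Leo1 at 59.9 and Rab8a at 53.0. Srgap2 was at 33.6 there, and Tnfrsf22 was the lowest at 9.08.

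Between 0 h and 96 h none of the 10 genes passed in the 4 single-end libraries, where 29.7% of 15777 genes did. That holds for edgeR, with no unadjusted p under 0.05 among the 10, for DESeq2 and with the replicate number as a block, where 47.3% of all genes were called. With the block 2 of the 10 genes had an unadjusted p under 0.05 by edgeR, Pccb (adjusted p = 0.0604) and Ap1g1 (adjusted p = 0.0771). Pccb had the lowest value, with 67.48 and 46.84 CPM at 0 h and 45.77 and 37.80 CPM at 96 h (log2 change −0.50, 95% interval −1.19 to 0.19). It was lower within each replicate, but the groups overlapped. Ap1g1, the gamma subunit of the AP-1 clathrin adaptor, had the highest, with 117.1 and 147.1 CPM at 0 h and 188.5 ± 6.36 CPM (SD, n = 2) at 96 h (0.46, interval −0.14 to 1.06), and its groups did not overlap. The others lay between −0.29 (Tnfrsf22) and 0.25 (Acad8), and in the simulated data 0% of genes changed 2-fold and 28.1% of those changed 4-fold were recovered in this comparison.

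The 14 unsorted libraries together, with the single-end or paired-end type as a term, gave 1 of 10 genes changed over time, where 41.1% of 16123 did. That gene was Tnfrsf22 (adjusted p = 0.0263). In the replicate 1 libraries it was at 44.06 CPM at 0 h, 85.07 at 6 h, 221.6 at 24 h, 395.2 at 72 h and 37.11 at 96 h, with the nearly equal libraries at 36 h and 48 h between 758 and 760 CPM. In replicate 3 it was at 17.67 CPM at 0 h, 28.55 at 12 h, 37.64 at 24 h, 41.52 at 36 h and 29.69 at 48 h, and in replicate 2 at 30.83 CPM at 0 h and 26.32 at 96 h. Both series rose to 36 h, one of them far more than the other. The fitted log2 change was 3.02 at 36 h (SE 0.74, adjusted p = 0.0160, 29.2% of genes called) and 2.89 at 48 h (adjusted p = 0.0173, 34.1%). Without the nearly equal libraries, which left 1 library at each of these times, they were 1.61 (adjusted p = 0.130) and 1.07 (0.228) and no longer called, while 24 h (2.00, 0.0303) and 72 h (3.15, 0.00656) were. The call over time was made without them too (0.0180), but it was lost without the type term (0.379), with the run as the term (0.0646), and without the 24 h library of replicate 1 (0.0536) or 3 (0.0505) or either single-end 96 h library (0.0702 and 0.0797). The Tnfrsf22 course therefore rests on few libraries.

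Srgap2 and Pccb came next (adjusted p = 0.0944 and 0.100). Srgap2 was at 49.96 CPM at 0 h, 62.49 at 6 h, 36.23 at 24 h, 38.39 at 36 h and 43.16 at 96 h in replicate 1, and at 107.6, 79.04, 64.77, 71.02 and 72.28 CPM at 0, 12, 24, 36 and 48 h in replicate 3. In both the level at 24 h to 48 h was below that at 0 h, with fitted changes of −0.62 at 36 h (adjusted p = 0.0469) and −0.66 at 48 h (0.0325). Without the nearly equal libraries these were −0.61 (0.385) and −0.63 (0.296), not called, and the adjusted p over time was 0.437. Pccb was at 67.48, 67.09 and 69.99 CPM up to 24 h, at 49.68 and 48.39 CPM at 36 h and 48 h and at 38.99 and 45.77 CPM at 72 h and 96 h in replicate 1. In replicate 3 it was at 47.18, 48.28, 51.33, 40.75 and 31.86 CPM. Both series held level to 24 h and were lower afterward. With DESeq2 both genes passed (0.0132 for Srgap2 and 0.0307 for Pccb), as they did with the run as the term (0.0194 and 0.0177), and Pccb passed without the 0 h library of replicate 2 (0.0328).

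Mfge8 was at 192.5 CPM at 0 h, 110.5 at 72 h and 212.9 at 96 h in replicate 1, and at 186.2 CPM at 0 h and 76.90 at 24 h in replicate 3. It passed only with the run as the term (adjusted p = 0.0444). Leo1 was highest at 6 h and 24 h in replicate 1 (69.02 and 68.72 CPM, from 50.84) and at 12 h in replicate 3 (115.0 CPM, from 82.96), without a call. Ap1g1 was higher at 96 h in the fit with the type (0.54, adjusted p = 0.0241, 44.9% of genes called), a call lost without the nearly equal libraries (0.52, 0.0880). Acad8 lay between 18.22 and 30.80 CPM and Eif4h between 387.7 and 573.4 CPM over all 14 libraries. Rab8a was at 62.49–67.46 CPM in the paired-end and at 107.2–156.6 CPM in the single-end libraries. Cdk7 was likewise at 60.30–76.08 CPM in the paired-end and at 97.25–129.2 CPM in the single-end libraries. Leo1 went the other way, at 81.14–115.0 CPM in the paired-end and at 46.49–69.02 CPM in the single-end libraries. In Rab8a, Cdk7 and Leo1 no time point crossed this separation by library type.

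**Figure D4:**
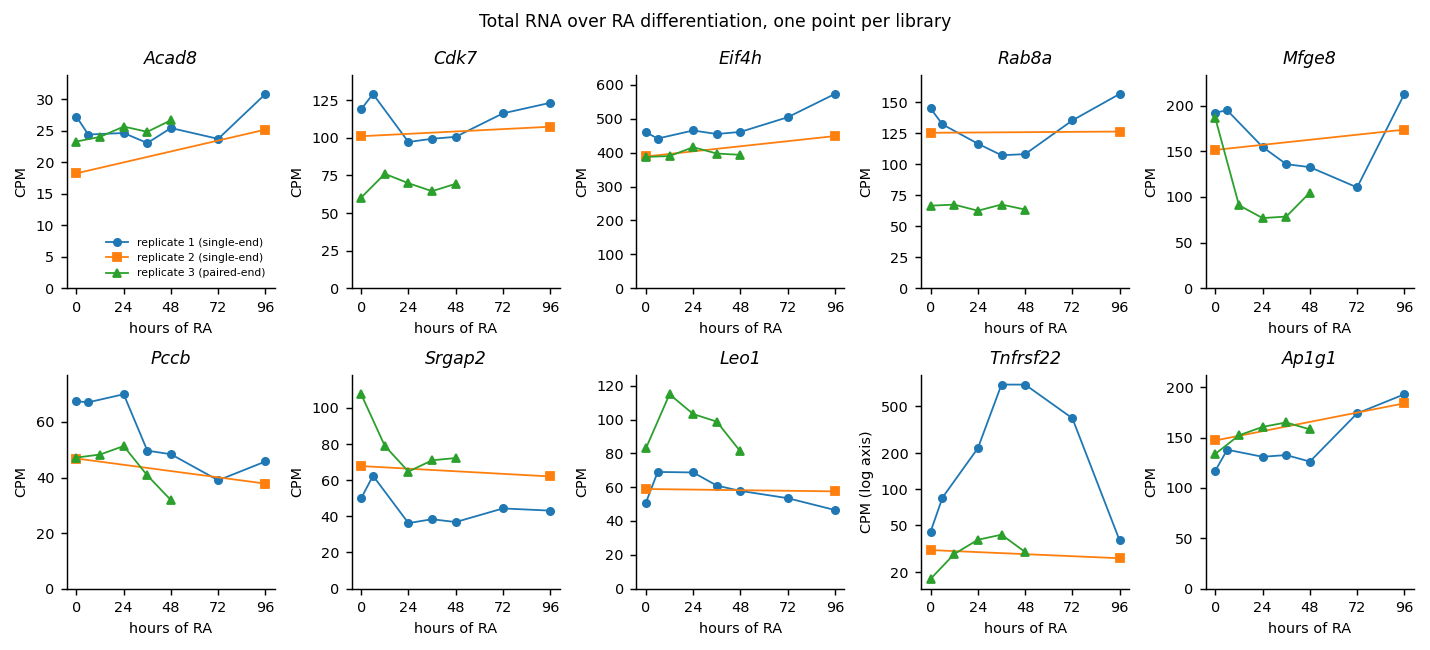
CPM (y axis, separate scale per gene, logarithmic for Tnfrsf22) of the 10 genes over hours of RA (x axis) in the 14 unsorted total RNA libraries, with replicates 1 and 2 single-end and replicate 3 paired-end. Tnfrsf22 reaches 759.3 CPM at 36 h in replicate 1 and 41.52 CPM in replicate 3. Rab8a and Cdk7 are lower, and Leo1 is higher, in each paired-end library.

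Among the functional partners in total RNA at 96 h against 0 h, where 29.7% of all genes were called, the counts were as follows. Around Acad8, 2 of 14 genes of branched-chain amino acid breakdown were lower, both of them subunits of the branched-chain ketoacid dehydrogenase (Bckdhb −1.28 and Bckdha −0.97). Around Rab8a 3 of 10 were higher, led by the recycling endosome genes Myo5b (5.29) and Rab11a (1.53), and around Srgap2 3 of 9 were higher (Robo2 8.47 and Slit1 4.63). Around Eif4h 1 of 10 was higher, the eIF4A inhibitor gene Pdcd4 (2.57), and 2 were lower, of which Eif4ebp1, a repressor of cap binding, was at −1.25. For Cdk7 1 of 9 was lower (Gtf2h1, −0.91), for Mfge8 1 of 8 higher (Itgav, 1.13), for Pccb 1 of 7 tested higher (Hlcs, 1.3), for Tnfrsf22 1 of 2 tested higher (Tnfrsf10b, 1.08), and for Leo1 and Ap1g1 0 of 5 and 0 of 8 passed.

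Over the 9 single-end unsorted libraries the most similar genes, by Pearson r on log2(CPM + 1), were Spesp1 and Gm805 for Tnfrsf22 (0.998 and 0.995), Rab39 and Galt for Pccb (0.991 and 0.987), Pank3 and Parpbp for Ap1g1 (0.982 and 0.981) and Spcs1 and Mgat2 for Rab8a (0.966 and 0.964). For Mfge8 they were Tbc1d23 and Gm2810 (0.952 each), for Leo1 9330159F19Rik and Spred2 (0.952 and 0.943) and for Acad8 Tmem259 and Zfp524 (0.940 and 0.931). Each r is among the highest for its member over 13280 genes, a choice that by itself favors high values. These values describe 9 libraries from 2 replicates, in which the 36 h and 48 h libraries of replicate 1 are nearly the same.

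The sorted populations had 1 library each, so their differences have no replicate check, and the intervals given cover counting error only. The characteristics labels give the XEN sort as CD24-positive and the protocol gives the reverse. In the data the library titled XEN had Pdgfra at 862.1 CPM against 230.0 in ECT, and Cd24a at 24.09 against 725.0 CPM, which goes with the protocol. The ECT library also held XEN genes (Lama1 at 2071 CPM against 7723) and fibroblast-type genes (Acta2 at 229.1 CPM against 2.19, with 6 listed markers at 257 CPM in sum against 2.78), whose part in the values below was not tested.

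Tnfrsf22 stood out, at 9.76 CPM (exact Poisson interval 8.51 to 11.2) in XEN and 61.4 CPM (58.8 to 64.0) in ECT, a ratio of 0.159. Acad8 went the other way, at 40.7 CPM (38.1 to 43.4) in XEN and 21.5 CPM (20.0 to 23.1) in ECT, a ratio of 1.89. With Rab8a (1.51) these were the 3 of 10 genes past 1.5-fold, where 45.9% of 15089 genes were. The ratio was 1.37 for Eif4h, 1.24 for Mfge8, 1.15 for Leo1, 1.13 for Cdk7, 1.05 for Ap1g1, 0.922 for Pccb and 0.845 for Srgap2. Scaled by library totals in place of TMM factors, which moves the median of all genes from −0.01 to −0.32 on the log2 scale, the ratio was 1.53 for Acad8, 1.22 for Rab8a and 0.129 for Tnfrsf22, and those of Leo1 (0.933), Cdk7 (0.912) and Ap1g1 (0.846) turned below 1. The directions of Acad8, Rab8a, Eif4h, Pccb, Srgap2 and Tnfrsf22 were the same under both scalings.

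The small RNA libraries show how much of each transfected miR the cells held. Of the 14 miRs, 11 had enough counts to be tested, and 7 of these differed between 0 h and 96 h, where 24.3% of 745 miRs did. miR-99a-5p rose most in level, from 6.26 to 4784 CPM (means of 4, log2 change 9.79, SE 0.85, adjusted p = 4.3e-09), and miR-100-5p, with the same seed and the same proposed target Cdk7, from 8.56 to 1062 CPM (7.25, adjusted p = 2.77e-05). miR-216a-5p, paired with Leo1, was at 0 in each of the 4 libraries at 0 h and at 70.3 CPM at 96 h, at least 131-fold higher if the earlier level is set at 3 counts per library. Thus 3 miRs rose. Over the same hours cytoplasmic Cdk7 passed at no time.

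The 4 that fell were miR-135b-3p, the proposed partner of Srgap2, from 107.8 to 10.98 CPM (−3.11), miR-23b-5p, of Acad8, from 37.5 to 2.77 CPM (−3.55), miR-150-3p, of Mfge8, from 12.4 to 0.255 CPM (−5.17), and miR-1946b, of Rab8a, from 7.50 to 1.68 CPM (−1.95, adjusted p = 0.0233). The last call was lost without small RNA replicate 3, 5 or 6 (0.0871, 0.127 and 0.118). Srgap2 was lower at 96 h too, so mRNA and proposed miR both fell. miR-1946a was at 7.23 and 1.89 CPM (−1.71, adjusted p = 0.0573) and was called with the replicate number as a block (0.0155), with DESeq2 (0.00326), with its size factors (0.0177), without the filter (0.0493) and without replicate 7 (0.0103).

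The 3 most abundant at 0 h did not pass between the ends of the course. In the simulated data 4% of miRs changed 2-fold and 27.7% of those changed 4-fold were recovered in this comparison. miR-433-3p was at 1837 CPM at 0 h, 3135 at 6 h and 1077 at 96 h, miR-152-3p at 1142 CPM at 0 h, 446.5 at 12 h and 2099 at 96 h, and miR-467e-5p at 301.8, 165.1 and 435.6 CPM at 0, 12 and 96 h. For miR-152-3p the 0 h mean rests on replicate 3, at 2454 CPM against 682.0 to 746.0 CPM in the other 3. Its log2 change of 1.01 (adjusted p = 0.0600) was 1.67 without replicate 3 (0.0025), and it was also called with the block (1.17, 0.00536) and with DESeq2 (0.90, 0.0255). miR-433-3p was at −0.61 (0.258) and was called only without replicate 7 (−0.90, 0.0480). Their courses changed over the 8 times, as did those of all 11 miRs tested (28.6% of 745). miR-152-3p and miR-467e-5p were both lower at 12 h than at either end, while cytoplasmic Eif4h, to which both were assigned, was lowest at 6 h and highest at 96 h. miR-193b-5p, miR-194-1-3p and miR-5615-3p had means of at most 0.910 CPM at 0 h and 0.587 CPM at 96 h, too few counts for a test, so the proposed partners of Pccb and some of those of Rab8a and Acad8 were hardly detected at this depth at these times.

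**Figure D5:**
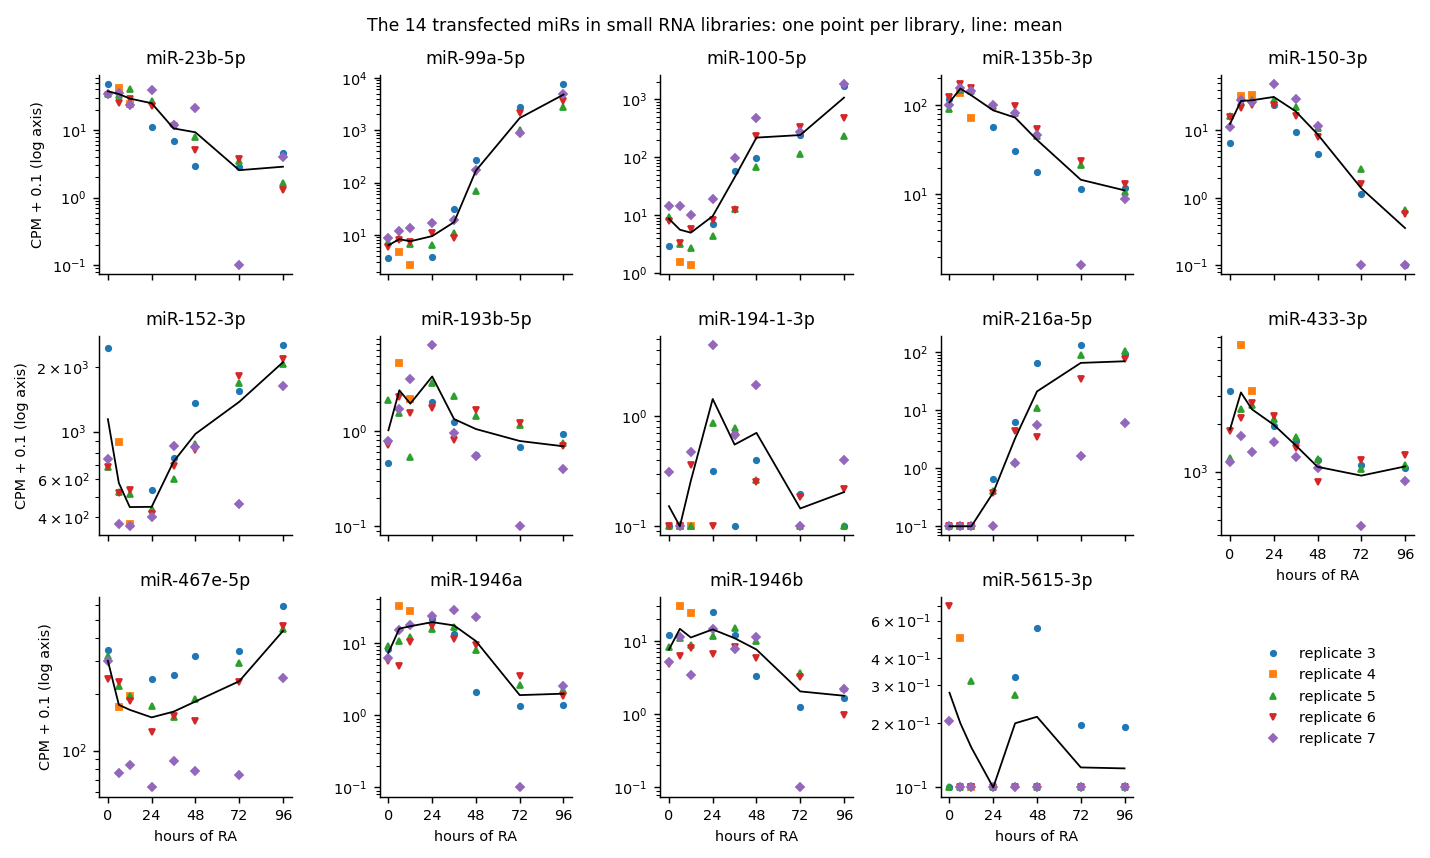
CPM + 0.1 (y axis, logarithmic) of the 14 transfected miRs over hours of RA (x axis) in the 32 small RNA libraries; points are the 4 replicates per time and lines join their means. miR-99a-5p reaches a mean of 4784 CPM at 96 h and miR-135b-3p falls to 10.98 CPM.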

How the data were processed

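The authors deposited expected counts and TPM from RSEM per gene for mRNA and counts per mature miR for small RNA. Per the submitters' notes the tools included Trimmomatic, STAR, Bowtie, Bowtie2, RSEM and DESeq2 with builds mm10 and GRCm38. TPM was copied from the deposited files only to compare levels between genes. The study used stranded kits and aligned with the stranded option.

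Expected counts were rounded to whole numbers. Genes with a mean count above 10 (20 for transfections, as in the study) were tested with edgeR 4.0.16 (R 4.3.3), TMM scaling, the quasi-likelihood test, two-sided, and Benjamini-Hochberg adjustment over all genes of a contrast, at 0.05. SE is the log2 change over the square root of F. Rows of a miR listed for several hairpins were summed and rounded. Fits shared the spread within a set: 48 fraction, 47 mimic (without the library the study left out), 48 inhibitor, 32 small RNA and 14 unsorted total RNA libraries (library type as a term), and 4 for total RNA at 96 h against 0 h. The sorted libraries had no test. The labels call the fraction, small RNA and paired-end total RNA libraries biological replicates, name the fraction and small RNA libraries by differentiation run and number the transfections by batch. The single-end libraries have a number at 0 h and 96 h and none between, where they are called replicate 1 here. The p-values measure the spread between these samples.

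The batch numbers pair the transfections by the labels (median correlation of same-numbered deviations 0.327 for mimics and 0.307 for inhibitors). Each of the 47 mimic and 48 inhibitor libraries was closest to its own number. The alternatives were DESeq2 1.42.0, its size factors in edgeR, no filter, a replicate block, other references, the run as the term, no library type term, leaving out each replicate and, chosen after seeing the data, the culture as a block for the fractions and the total RNA fit without the nearly equal libraries. Where other mimics were the reference, only those of the same naming were used. The tests were tested on simulated data with known changes. Depth sets the precision, and the exact Poisson intervals (95%) cover counting error only. The named genes were the 10 members, the 14 miRs, up to 2 partners per list with the largest change past the test and the 2 genes of highest r. Members and lists were chosen with earlier results of these data known.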

Additional observations from a re-analysis of the deposited data

Results flagged for a closer look

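In 16 of the 112 groups of 4 small RNA libraries (14 miRs at 8 times), 1 library lay far from the other 3 (Dixon's test at 95%, which chance passes in about 1 in 20 groups). All values are CPM. The highest were miR-152-3p in replicate 3 at 0 h (2454) and 48 h (1360), and the others of abundant miRs were miR-135b-3p in replicate 4 at 12 h (71.82) and replicate 3 at 24 h (56.38), miR-216a-5p in replicate 3 at 48 h (64.79), miR-467e-5p in replicate 7 at 12 h (83.78), miR-23b-5p in replicate 3 at 0 h (48.71) and 36 h (6.807) and miR-100-5p in replicate 7 at 6 h (14.34). The remaining 7 were miRs near 0, namely miR-194-1-3p in replicate 7 at 0 h (0.2089) and 48 h (1.799), and miR-5615-3p in replicate 4 at 6 h (0.3961), replicate 5 at 12 h (0.2143) and replicate 3 at 48 h (0.4542), 72 h (0.096) and 96 h (0.0908), where the other libraries of miR-5615-3p were at 0. Of the 16, 9 were in replicate 3, 4 in replicate 7, 2 in replicate 4 and 1 in replicate 5.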

How the results depend on the processing

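Of 1018 single values under alternatives, 976 stayed on their side of the threshold, 18 lost and 24 gained a call, and 48 that were uncalled throughout changed sign. None that was called turned its direction. Genes called over time in total RNA (1 in the report) were 3 with DESeq2, 3 with the run as the term, 0 without the library type term and 0 to 2 when libraries were left out. Genes that differed between nucleus and cytoplasm (2) were 1 with DESeq2, 1 with its size factors, 1 without the filter, 1 with the culture (number and time) as a replicate block, an alternative chosen after seeing the data, and 1 to 2 without a replicate. Predicted pairs lowered by a mimic (1) were 4 by an unadjusted one-sided p. Member and mimic pairs called (1) were 3 with DESeq2, 3 with the replicate block and 3 against the other mimics of the same naming. Without a replicate they were 1 to 2, and member and inhibitor pairs (0) were 1 with the block. Genes that differed between the miR-99a-5p and miR-100-5p mimics (0) were 1 with the left-out library. The miRs called at 96 h (7) were 6 to 9 over the alternatives. The number pairs the transfections by the labels, and the block changed no other member's call. In total RNA the samples share only a number (correlation 0.288), and the block left 0 genes called at 96 h. The fraction and small RNA libraries are named by differentiation run. Deviations of those with the same number had a median correlation of 0.02 in the fractions (28 of 48 libraries closest to their own number) and 0.665 in small RNA (25 of 32), and those of both fractions of a culture one of −0.026 over 24 pairs. With the replicate number as a block 2 genes differed between fractions and 9 miRs were called, with miR-152-3p and miR-1946a in addition. Genes with a fraction difference that changed over time (12 of all) were 1 with the culture as the block. The causes were not tested.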
